A study of Homo sapiens with 6 samples.

Results

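Epithelial cells are held together by tight junctions, adherens junctions and desmosomes, and the transcripts of 48 genes of these structures, of 17211 genes listed in the deposited table, were followed in CAOV2 ovarian cancer cells after silencing of TAZ. The genes were taken by a rule on gene symbols, which covered the numbered claudins, TJP genes, desmogleins, desmocollins, plakophilins and cadherins (without CDH1 and CDH17), together with OCLN, F11R, CGN, MARVELD2, MARVELD3, DSP, JUP, PPL, EVPL, EPCAM, CTNNA1, CTNND1, NECTIN1, NECTIN2 and NECTIN4. The names matched 74 current gene symbols, of which 48 were measured and 26, such as CLDN5, CLDN6, DSG3, CDH3, CDH5 and NECTIN4, were not analysed here. All 48 had a mean of at least 1 and entered the test.

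TAZ, encoded by WWTR1, is a Hippo pathway coactivator that binds TEAD transcription factors. Both groups were CAOV2 cells, labelled as a cell line and as primary ovarian cancer cells, grown in DMEM with 10% heat-inactivated serum. In each well 100000 cells were seeded and transfected with 100 pmol of siRNA and 6 µL of Lipofectamine RNAiMAX for 2 days, and RNA was taken on day 3. The siTAZ group (n = 3) received a TAZ siRNA from Dharmacon and the siNT group (n = 3) the AllStars non-targeting control. A single siRNA product was used for TAZ, and no untransfected group was analysed here. The samples are called biological replicates, but nothing in the labels says that they came from separate cultures, so a p-value here reflects only how these libraries spread, which may be technical.

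In tight junctions, claudins form the paracellular strands, occludin and its MARVEL-domain relatives and the junctional adhesion molecules lie in the same membrane belt, and ZO proteins (TJP genes) and cingulin form the cytoplasmic plaque. Adherens junctions use classical cadherins and nectins, which are tied to actin through catenins. In desmosomes, desmogleins and desmocollins bind plakoglobin (JUP) and plakophilins, which are linked to keratin filaments by desmoplakin (DSP).

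The libraries held 25478595 to 34488196 reads in genes, and every level below is a read number after division by the size factor of its library. WWTR1 was at 4359, 4217 and 4258 in siNT and at 242, 277 and 280 in siTAZ, so the silenced transcript followed the labels in all 6 libraries. Mitochondrial transcripts took 2.85% to 3.91% of reads. Of 6 ovarian epithelial markers, WT1, SOX17 and EMX2 were not analysed here, and PAX8, MUC16 and MSLN together summed to only 30.4 to 59.9 in siNT and 29 to 38.4 in siTAZ, with MSLN called higher. Of all genes tested, 55.8% were called in either direction, and the marker counts here are to be read against that share. Of 8 epithelial markers 7 were measured, 3 rose and 3 fell. KRT8, KRT19 and ELF3 were the 3 that rose, and KRT7, KRT18 and MUC1 the 3 that fell. The epithelial keratins KRT8 and KRT18 were abundant, at 35206 ± 1349 and 27495 ± 1133 in siNT (SD, n = 3). KRT7 went from a mean of 22847 in siNT to 8604 in siTAZ. Other markers of the list were low: MUC1 had means of 98.85 and 65.8, and ESRP1 of 7.21 and 8.31. CD24 was not analysed here. None of 7 endothelial markers was among the listed genes. Of 7 fibroblast markers, 6 were measured, 3 of them rose and 1 fell, and their summed level was 5610 to 6399 in siNT and 6615 to 7502 in siTAZ, with LUM the highest. Of 7 leukocyte markers, 4 were measured, 2 rose and 1 fell, and their sum was 198 to 214 in siNT and 301 to 352 in siTAZ. PTPRC and CD3E were not among them. The part of other cells in the results below was not tested.

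Of the 48 junction genes, 25 rose, 9 fell and 14 did not pass the test after TAZ silencing (limma, Benjamini-Hochberg adjusted p under 0.05 over all 17204 genes tested). In the whole table, calls were higher for 28.3% and lower for 27.5% of genes, against 52.1% and 18.8% of the junction genes, and 55.8% were called in either direction, against 70.8%. The median log2 fold change was 0.45 for the junction genes and 0.00 for all genes (siTAZ relative to siNT, as the difference in log2 of the deposited value plus 1 throughout, which understates the change of low genes). Called changes of at least 2-fold were upward for 11 junction genes and downward for 1, CLDN4, where 6.7% of all genes rose and 3.91% fell that far. Abundant genes pass a test more easily, so the same counts were taken at a mean of at least 1000: 12 of 18 junction genes rose and 3 fell, where 1901 of all 6343 such genes rose and 2434 fell. The values of siNT and siTAZ libraries did not overlap for 36 of the 48 genes (75.0%), against 61.4% of all genes.

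**Figure D1:**
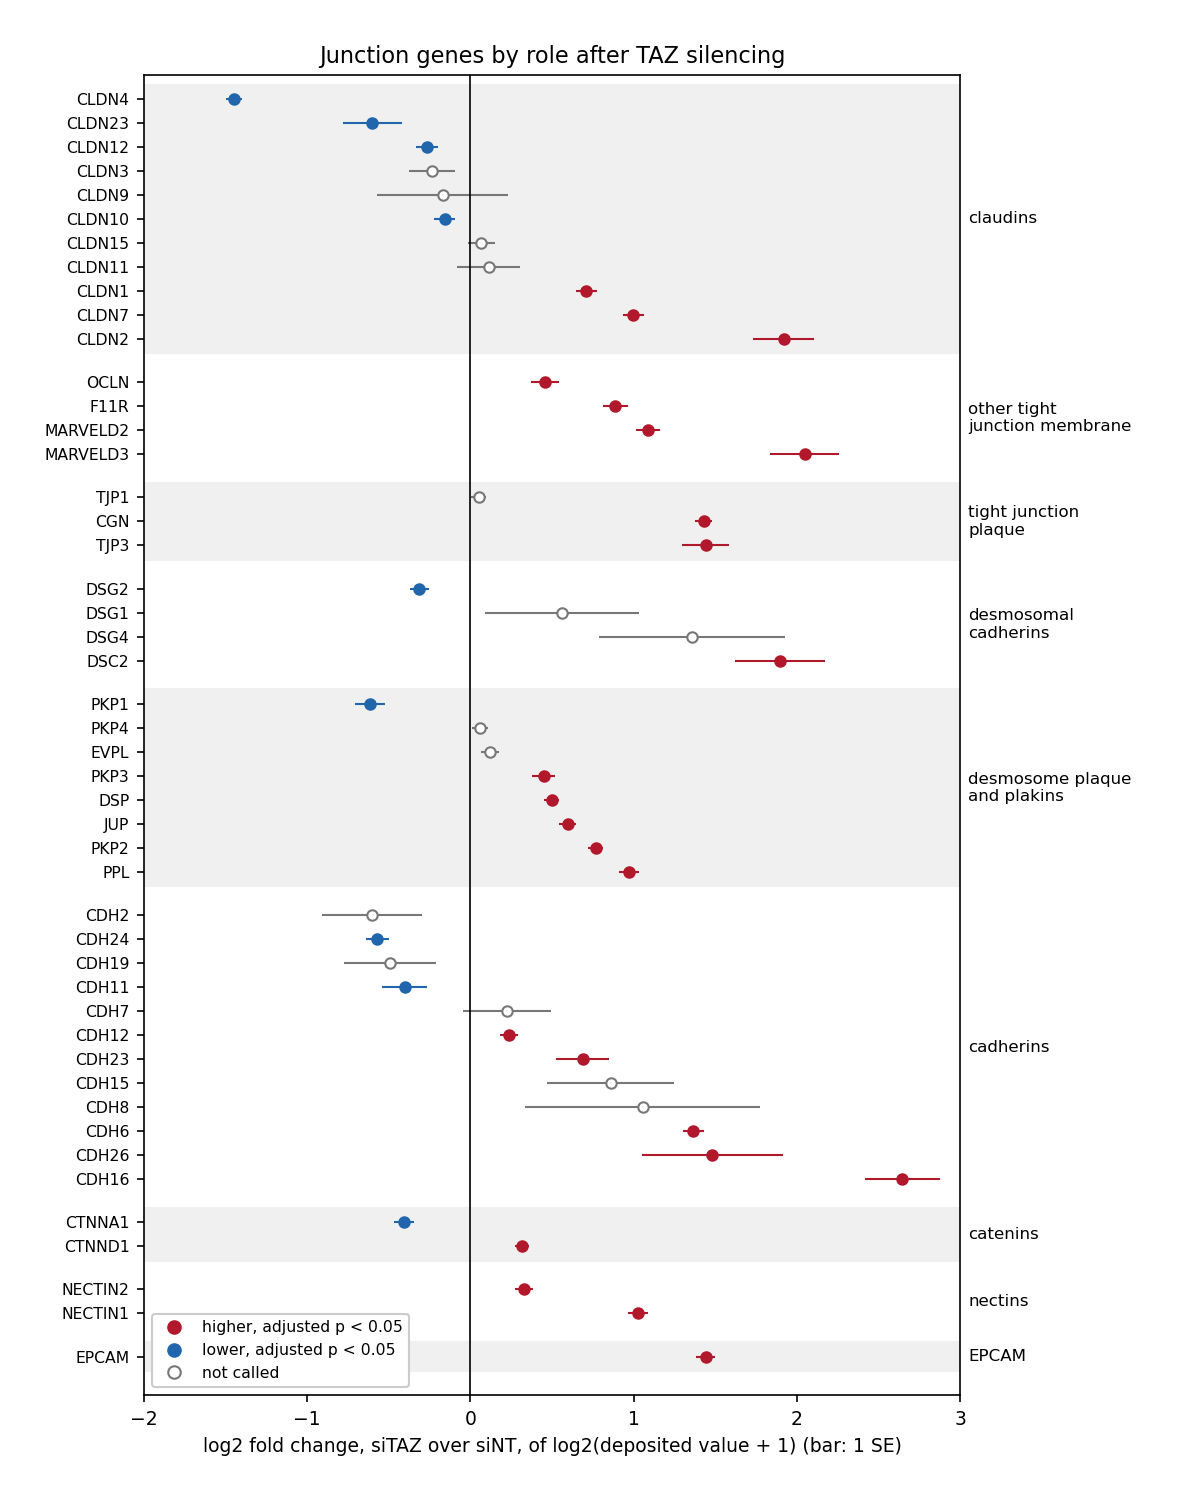
Log2 fold change of 47 of the 48 junction genes (x axis, siTAZ over siNT; bars are 1 SE), arranged by role on the y axis, with filled red points for genes called higher, filled blue points for genes called lower and open points for genes not called. The claudins reach to both sides of 0, with CLDN4 at -1.45 and CLDN2 at 1.92, while all 4 other tight junction membrane genes lie to the right of 0.

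The summed level of the claudins was lower in siTAZ, while that of most other roles was higher. The 11 claudins added up to 11226, 11638 and 11357 in the siNT libraries and to 7661, 7732 and 7792 in the siTAZ libraries. The 4 other tight junction membrane genes went the other way, with sums of 1152, 1006 and 1103 in siNT and 1968, 2064 and 2058 in siTAZ. Sums of the tight junction plaque genes were 1.31-fold higher in siTAZ, of the desmosome plaque and plakins 1.36-fold, of the cadherins 1.34-fold, of the catenins 1.22-fold and of the nectins 1.496-fold, while the desmosomal cadherins stood at 0.82 of siNT. These sums follow their most abundant members. Without CLDN4 the claudin sum was 4427 ± 91.8 in siNT and 5172 ± 164 in siTAZ (SD, n = 3), 1.17-fold higher rather than lower. Together the 48 genes held between 0.279% and 0.283% of a siNT library and between 0.350% and 0.357% of a siTAZ library.

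**Figure D2:**
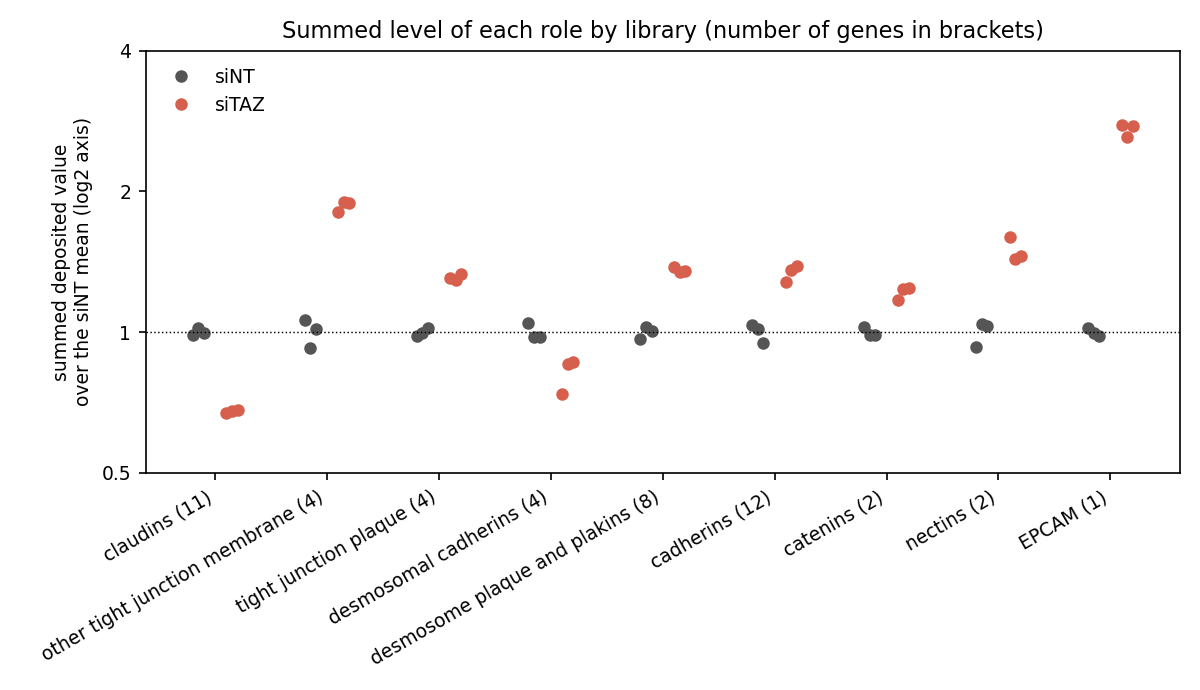
Summed deposited value of each role in each library, divided by the siNT mean (y axis, log2 scale), with roles and their number of genes on the x axis, grey points for the 3 siNT libraries and red points for the 3 siTAZ libraries. The claudins and the desmosomal cadherins are the roles whose siTAZ points all lie below siNT.

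Claudins moved in both directions: CLDN4 fell, and CLDN7, CLDN1 and CLDN2 rose. Calls were higher for 3 of the 11 claudins, lower for 4 and absent for 4, so that 63.6% were called, near the 55.8% of all genes, and their median was -0.16 on the log2 scale. CLDN4 (ENSG00000189143), a barrier-forming claudin, was at 6718, 7192 and 7029 in siNT and at 2679, 2461 and 2531 in siTAZ. It was the most abundant claudin transcript of siNT, and its groups were far apart, with a 2.73-fold fall (log2 fold change -1.45, SE 0.05, limma adjusted p = 5.7e-13). CLDN7 (ENSG00000181885), which is also found along the lateral membrane and binds EPCAM, was at 608, 667 and 593 in siNT and at 1288, 1283 and 1166 in siTAZ. All siTAZ libraries were above all siNT libraries, by 2.00-fold in the means (log2 fold change 1.00, SE 0.07, limma adjusted p = 1.5e-09). CLDN1 (ENSG00000163347), a claudin required for the skin barrier, was at 698, 634 and 696 in siNT and at 1044, 1123 and 1155 in siTAZ, a 1.64-fold rise with no overlap (limma adjusted p = 7.8e-08).

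CLDN2 (ENSG00000165376), which forms a cation and water channel in leaky epithelia such as gut crypts and proximal tubule, was scarce, with 30.4, 47.0 and 26.6 in siNT and 131, 122 and 137 in siTAZ. It had the largest rise of the claudins, 3.75-fold (log2 fold change 1.92, SE 0.19, limma adjusted p = 1.8e-07), from 95 reads over the 3 siNT libraries to 420 over the 3 siTAZ libraries. CLDN23 was as scarce and went down, from 67.0, 60.9 and 70.1 to 53.0, 43.1 and 35.0. Its groups did not overlap (log2 fold change -0.60, limma adjusted p = 0.0089), but the call was lost without siTAZ replicate 3 (adjusted p = 0.056, range over 16 alternatives 0.0022 to 0.056). CLDN12, a claudin without the usual PDZ-binding end, fell 1.20-fold, from 1778 ± 90.7 to 1481 ± 150 (SD, n = 3, limma adjusted p = 0.0031).

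CLDN10, which has cation- and anion-selective isoforms, was at 809 ± 34.4 and 725 ± 38.4 (SD, n = 3) with a limma adjusted p of 0.047, and that call failed under 10 of 16 alternatives, where the adjusted p ranged from 0.031 to 0.18. In GENCODE release 29, 46.1% of its exon bases lie opposite exons of DZIP1. Whether reads were counted by strand is not known. CLDN3 was at 96.3, 128 and 109 in siNT and at 107, 84.4 and 90.4 in siTAZ, and CLDN15 at 287, 263 and 268 and at 287, 282 and 288. The groups of both overlapped (limma adjusted p = 0.17 and 0.51). CLDN11 at 47.8 ± 9.06 and 51.5 ± 8.37 and CLDN9 at 8.48 ± 3.26 and 7.23 ± 1.83 (SD, n = 3) did not pass either. In the same release CLDN11 shares 18.3% of its exon bases with AC026316.5 and CLDN7 shares 10.8% with AC003688.1, both on the same strand. For CLDN2, 10.0% lie opposite RIPPLY1. Some exon overlap with another gene was found for 20 of the 48 junction genes, and not every overlap is named here.

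CLDN3 and CLDN4 are next to each other among protein-coding genes, and their log2 fold changes were -0.24 (SE 0.14) and -1.45 (SE 0.05). MARVELD2 and OCLN, another pair of neighbours, were both higher. The further neighbouring pairs did not all move together. CDH8 and CDH11 had log2 fold changes of 1.055 and -0.40, and CDH7 and CDH19 of 0.22 and -0.49. Those of DSG1 and DSG4 were 0.56 and 1.36. In these further pairs only CDH11 was called.

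Per kilobase of the longest protein-coding transcript, CLDN4 stood alone at the top in siNT and level with CLDN7 in siTAZ. These lengths were 4.163 kb for CLDN4 and 1.923 kb for CLDN7. Before division by length, CLDN4 stayed above CLDN7 in siTAZ, at 2557 ± 111 against 1246 ± 69.25 (SD, n = 3). Which transcript was expressed is not known, so levels per kb and their shares, here and below, depend on that choice of length. In siNT the order was CLDN4 at 1677 ± 57.8, CLDN12 at 499 ± 25.4, CLDN7 at 324 ± 20.2, CLDN10 at 305 ± 13.0 and CLDN1 at 194 ± 10.5 (deposited value per kb, SD, n = 3), where CLDN7 and CLDN10 lay within their spread of each other. In siTAZ CLDN7 at 648 ± 36.0 and CLDN4 at 614 ± 26.7 headed the list and did not differ beyond their spread, followed by CLDN12 at 416 ± 41.9, CLDN1 at 318 ± 16.4 and CLDN10 at 273 ± 14.5. Of the claudin level per kb, CLDN4 made up 51.1% ± 1.01 in siNT and 23.9% ± 1.10 in siTAZ, CLDN7 9.87% ± 0.43 and 25.3% ± 1.43, and CLDN1 5.93% ± 0.44 and 12.4% ± 0.61 (SD, n = 3). The shares did not overlap between groups for any of these 3 genes. The two-sided exact permutation test gave p = 0.10 for each (0.1 after adjustment over the 3 tests). This is the smallest p that 3 against 3 libraries allow. It follows from the lack of overlap, so the test adds nothing to it. Nor are the shares independent, since a fall in the share of CLDN4 by itself raises the others. The share of CLDN10, which was called lower, went from 9.28% ± 0.2 to 10.64% ± 0.55 (SD, n = 3). That of CLDN15, which was not called, went from 3.90% ± 0.25 to 5.225% ± 0.07 (SD, n = 3).

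**Figure D3:**
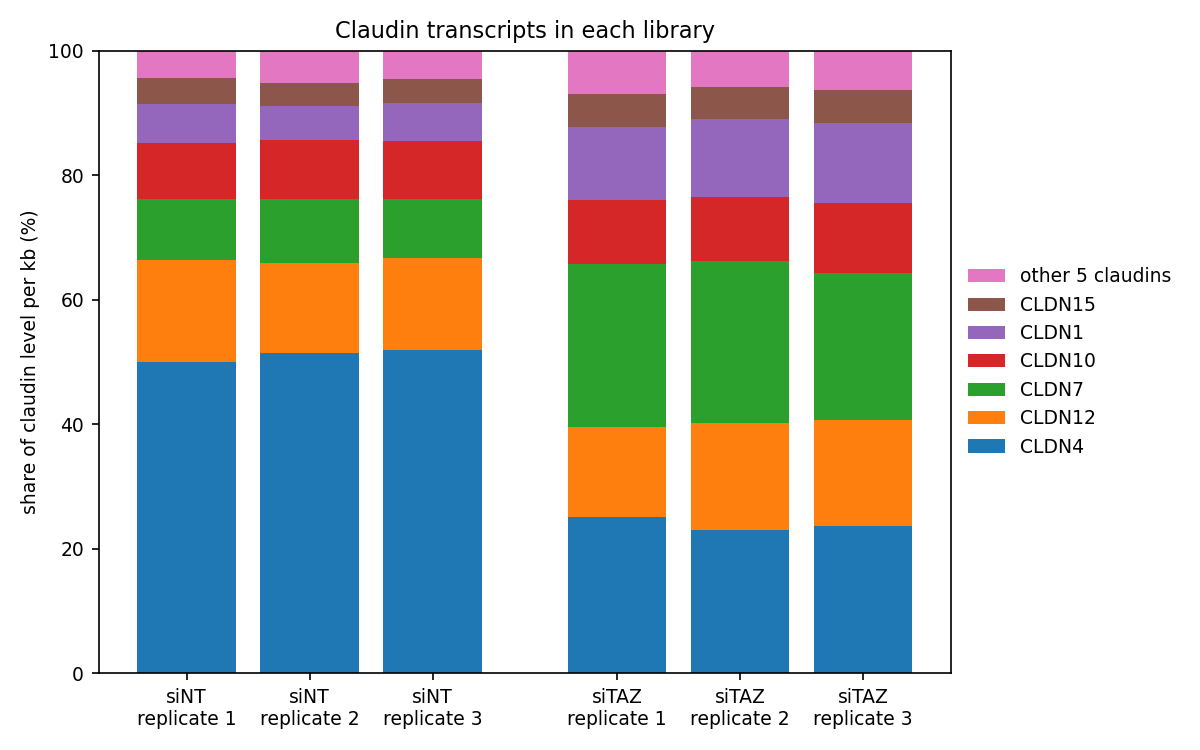
Share of each claudin in the claudin level per kilobase (y axis, percent) in each of the 6 libraries (x axis), stacked from CLDN4 at the bottom to the 5 least abundant claudins at the top. The CLDN4 block takes 51.1% on average in siNT and 23.9% in siTAZ, and the CLDN7 block widens from 9.87% to 25.3%.

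The start regions of CLDN4, CLDN2 and CGN are shown because these are the claudins with the largest fall and the largest rise and the plaque gene with the smallest adjusted p. The windows run from 250 bases before to 50 bases after the start (RefSeq, GRCh38.p14, plus strand), and capitals mark matches to the motifs searched.
CLDN4, chr7:73830746-73831045: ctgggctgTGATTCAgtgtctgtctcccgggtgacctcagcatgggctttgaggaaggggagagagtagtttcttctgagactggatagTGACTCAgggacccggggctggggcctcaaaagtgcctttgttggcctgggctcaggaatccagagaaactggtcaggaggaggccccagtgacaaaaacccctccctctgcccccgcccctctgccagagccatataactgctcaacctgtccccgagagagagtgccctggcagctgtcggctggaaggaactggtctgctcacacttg
CLDN2, chrX:106899914-106900213: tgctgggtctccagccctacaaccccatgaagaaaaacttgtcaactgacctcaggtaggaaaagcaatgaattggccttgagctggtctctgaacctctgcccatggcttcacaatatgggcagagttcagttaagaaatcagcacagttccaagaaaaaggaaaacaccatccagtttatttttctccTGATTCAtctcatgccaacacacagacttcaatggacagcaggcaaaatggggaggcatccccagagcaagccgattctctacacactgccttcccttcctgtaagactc
CGN, chr1:151511137-151511436: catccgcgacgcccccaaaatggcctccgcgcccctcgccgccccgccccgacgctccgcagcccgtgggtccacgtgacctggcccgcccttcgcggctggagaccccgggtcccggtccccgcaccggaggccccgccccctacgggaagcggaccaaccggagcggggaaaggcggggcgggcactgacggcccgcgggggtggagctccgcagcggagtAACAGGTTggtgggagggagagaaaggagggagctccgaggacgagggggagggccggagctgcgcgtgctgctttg

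The motifs were GGAATG for TEAD factors, TGANTCA for AP-1, CAGGTG for the E-box read by ZEB and SNAIL factors, and AACCNGTT for GRHL factors, each on both strands. Windows were found for 30 of the 48 genes. The CLDN4 window held the AP-1 letters at 242 and 161 bases before the start, the CLDN2 window held them at 60 bases before it, and the CGN window held the GRHL letters at 27 bases before it. AP-1 letters stood in 3 of the 30 windows (CLDN2, CLDN4 and CLDN15) and in 7.76% of 27305 windows of the same length, and TEAD letters in 1 (CLDN15) against 14%. E-box letters stood in 7 (CLDN3, DSC2, DSG1, DSG2, DSP, OCLN and TJP1) against 20.6%, and GRHL letters in 1 (CGN) against 1.73%. None of these searched letters overlapped another match in the printed windows.

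The other membrane proteins of the tight junction rose in all 4 cases, where calls were higher for 28.3% of all genes. MARVELD2 (ENSG00000152939), tricellulin of the corners where cells meet, was at 465, 398 and 429 in siNT and at 853, 951 and 942 in siTAZ. That is a 2.13-fold rise with no overlap (log2 fold change 1.09, SE 0.07, limma adjusted p = 2.2e-09). F11R (ENSG00000158769), the junctional adhesion molecule JAM-A, was at 398, 332 and 354 in siNT and at 676, 646 and 681 in siTAZ. Its siTAZ libraries were all higher, by 1.85-fold (limma adjusted p = 4.6e-08), although 36.6% of its exon bases are shared in GENCODE release 29 with AL591806.3, annotated on the same strand. MARVELD3 was scarce and rose from 14.3 ± 2.01 to 62.0 ± 5.68 (SD, n = 3, log2 fold change 2.05, limma adjusted p = 3.4e-07), with 16.6% of its exon bases opposite PHLPP2. Occludin itself (OCLN) changed least, from 281 ± 24.8 to 385 ± 19.8 (SD, n = 3), 1.37-fold (limma adjusted p = 2.6e-04).

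In the plaque below, cingulin and ZO-3 more than doubled while ZO-1 did not pass the test. CGN (ENSG00000143375), which binds ZO proteins and restrains RhoA signalling, was at 1398, 1440 and 1373 in siNT and at 3933, 3686 and 3729 in siTAZ. The lowest siTAZ library was far above the highest siNT library, a 2.70-fold rise in the means (log2 fold change 1.43, SE 0.05, limma adjusted p = 8.1e-13). TJP3 (ZO-3) was at 107, 137 and 82.2 in siNT and at 301, 283 and 287 in siTAZ, 2.68-fold higher (log2 fold change 1.44, SE 0.14, limma adjusted p = 2.0e-07). TJP1 (ZO-1) was at 8518, 8345 and 8953 in siNT and at 8515, 9039 and 9188 in siTAZ. Its groups overlapped, and the difference was 0.05 on the log2 scale (SE 0.05) with a limma adjusted p of 0.38.

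**Figure D4:**
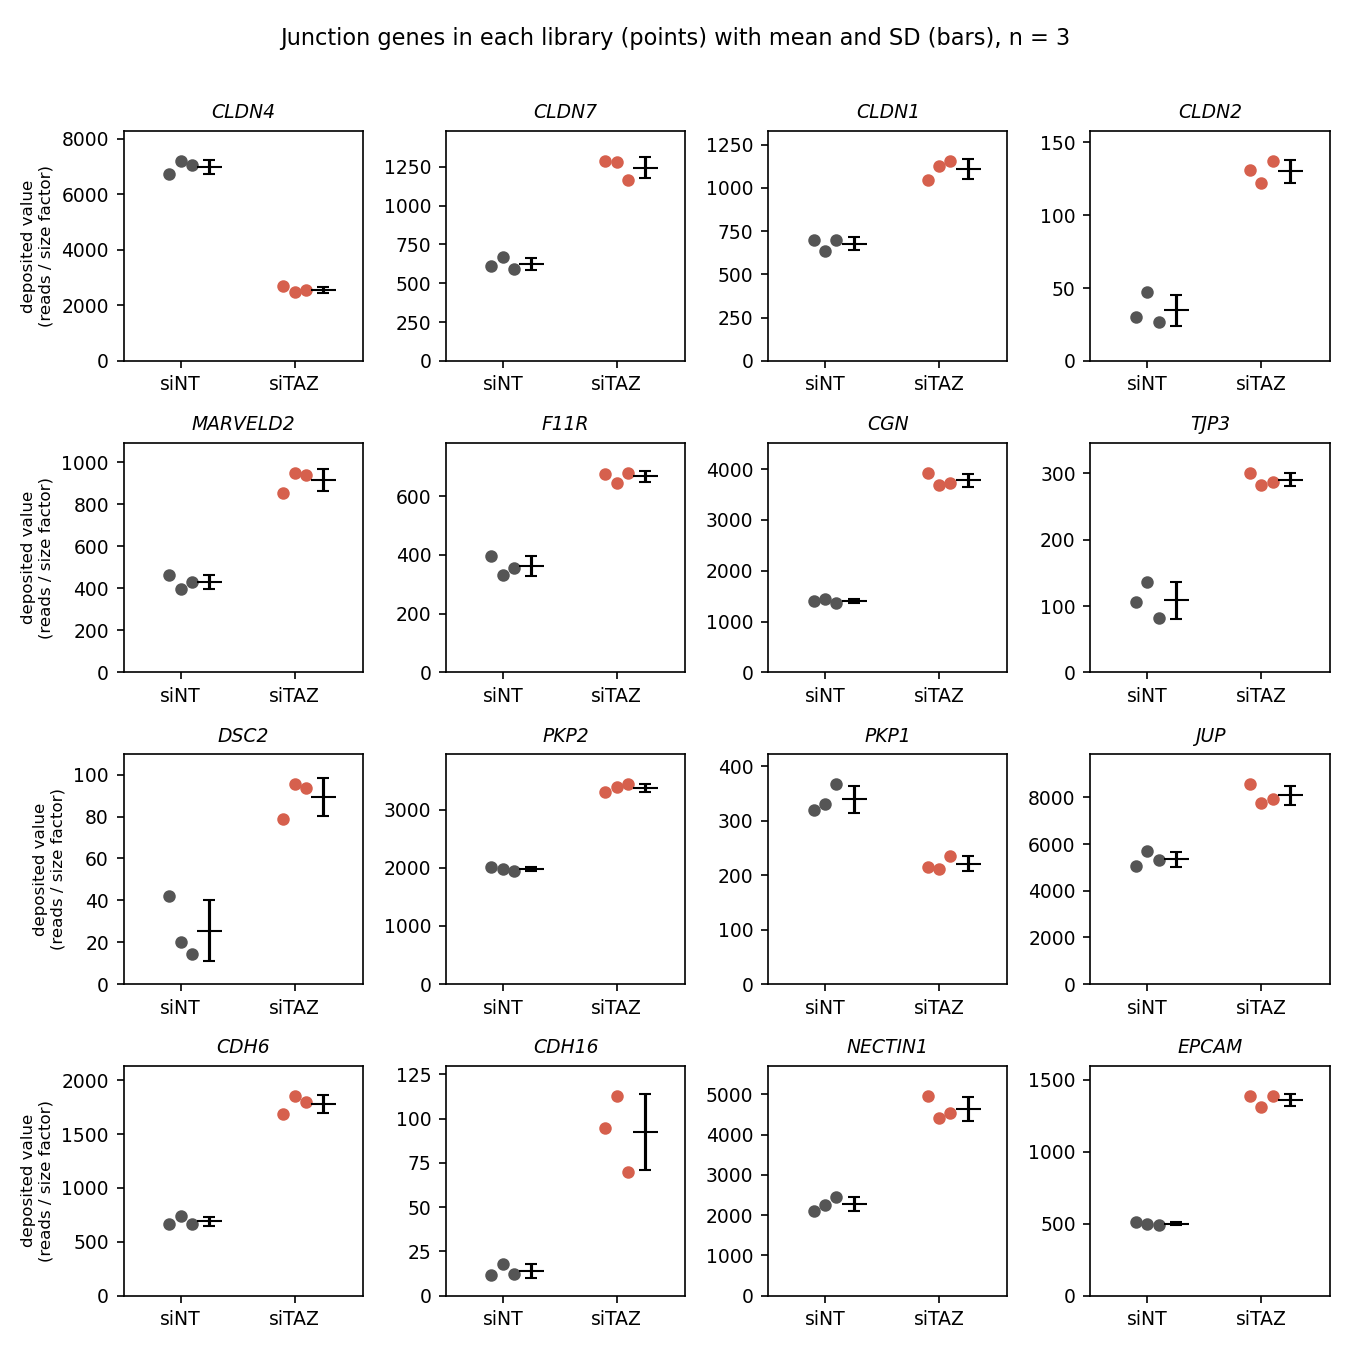
Deposited values (y axes, reads over the size factor, each starting at 0) of 16 junction genes in the 3 siNT libraries (grey) and the 3 siTAZ libraries (red), with black bars for mean and SD. CLDN4 and PKP1 are lower in every siTAZ library and the other 14 genes are higher in every siTAZ library.

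Desmosomal cadherins were almost entirely DSG2, the desmoglein of simple epithelia, which fell. DSG2 (ENSG00000046604) was at 6838, 6404 and 6409 in siNT and at 4758, 5510 and 5571 in siTAZ. The groups did not overlap, and siTAZ replicate 1 was the lowest library (1.24-fold fall, log2 fold change -0.31, SE 0.06, limma adjusted p = 1.9e-04). Its partner in simple epithelia, DSC2 (ENSG00000134755), was at 41.9, 20.3 and 14.5 in siNT and at 79.0, 95.5 and 93.8 in siTAZ, a 3.497-fold rise in the means (log2 fold change 1.90, SE 0.27, limma adjusted p = 1.6e-05). Per kb, DSC2 remained far below DSG2, at 7.26 ± 0.74 against 905 ± 77.7 in siTAZ (SD, n = 3). DSG4 was at 4.19, 1.07 and 1.21 in siNT and at 3.12, 9.18 and 8.53 in siTAZ, and DSG1 at 8.38, 15.0 and 2.42 and at 11.4, 9.18 and 11.9. Both are desmogleins of stratified epithelia, both overlapped between groups, and neither passed (limma adjusted p = 0.052 and 0.33). DSG4 passed as higher under 5 of 15 alternatives (adjusted p 0.016 to 0.19), among them edgeR (0.040) and leaving out siNT replicate 1 (0.019) or siTAZ replicate 1 (0.016). It had 6 reads over the siNT libraries.

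On the cytoplasmic side of desmosomes, 5 of 8 genes rose (62.5%, against 28.3% of all genes), 1 fell (12.5%, against 27.5%) and 2 did not pass. PKP2 (ENSG00000057294), the plakophilin of simple epithelia and heart, was at 2008, 1981 and 1950 in siNT and at 3304, 3381 and 3435 in siTAZ. The rise was 1.70-fold with a narrow spread in both groups (log2 fold change 0.77, SE 0.05, limma adjusted p = 5.6e-10). PKP1, the plakophilin best known from stratified epithelia, was at 320, 330 and 367 in siNT and at 216, 211 and 236 in siTAZ, so it moved against its relative (1.53-fold fall, log2 fold change -0.61, SE 0.09, limma adjusted p = 1.9e-05). PKP3, which is expressed in most epithelia, rose 1.37-fold, from 1585 ± 123 to 2165 ± 198 (SD, n = 3, limma adjusted p = 3.1e-05). PKP4, which is found more at adherens junctions, was at 3957, 3822 and 4081 in siNT and at 4043, 4106 and 4203 in siTAZ. Its groups overlapped (limma adjusted p = 0.29). Under total count scaling PKP4 passed as higher (adjusted p = 0.044, range over 16 alternatives 0.044 to 0.61).

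Plakoglobin (JUP, ENSG00000173801), the catenin shared by desmosomes and adherens junctions, was at 5055, 5690 and 5303 in siNT and at 8566, 7769 and 7923 in siTAZ. It had the highest level per kb of the desmosome plaque and plakin genes in both groups, 1530 ± 91.6 and 2312 ± 121 (SD, n = 3), and rose 1.51-fold (log2 fold change 0.60, SE 0.05, limma adjusted p = 5.7e-08). Desmoplakin (DSP) rose 1.41-fold, from 4601 ± 80.3 to 6497 ± 185 (SD, n = 3, limma adjusted p = 6.5e-08). Periplakin (PPL, ENSG00000118898), a plakin of the cornified envelope, was at 879, 993 and 850 in siNT and at 1768, 1832 and 1725 in siTAZ, a 1.96-fold rise and the largest among the 8 desmosome plaque and plakin genes (log2 fold change 0.97, SE 0.06, limma adjusted p = 1.2e-09). Envoplakin (EVPL), its binding partner, was at 2744, 3108 and 2980 in siNT and at 3282, 3278 and 3038 in siTAZ. EVPL overlapped and did not pass (log2 fold change 0.12, SE 0.06, limma adjusted p = 0.072), and it passed under total count scaling (0.012) and without siNT replicate 2 (0.039) or siTAZ replicate 3 (0.044), with a range over 16 alternatives of 0.012 to 0.29.

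Of the 12 cadherins measured, 5 rose, 2 fell and 5 did not pass, a called share of 58.3% that is near the 55.8% of all genes. CDH6 (ENSG00000113361), K-cadherin of the developing kidney and of ovarian and renal cancers, was at 667, 741 and 661 in siNT and at 1685, 1854 and 1798 in siTAZ. Its groups were well apart, with a 2.58-fold rise (log2 fold change 1.37, SE 0.06, limma adjusted p = 1.7e-11). CDH16 (ENSG00000166589), kidney-specific cadherin, was scarce in siNT with 11.5, 18.2 and 12.1 and reached 94.6, 113 and 69.9 in siTAZ. This was the largest log2 fold change of all 48 genes, 2.65 (SE 0.23, limma adjusted p = 4.5e-08), on 38 reads in siNT and 296 in siTAZ. CDH24 was at 619, 673 and 605 in siNT and at 415, 432 and 430 in siTAZ, all lower (1.49-fold fall, log2 fold change -0.57, limma adjusted p = 2.8e-06). CDH23, a very long cadherin of hair-cell tip links, was at 64.9, 47.0 and 48.3 in siNT and at 92.5, 81.7 and 83.6 in siTAZ (1.61-fold rise, limma adjusted p = 0.0016), and 18.9% of its exon bases lie opposite C10orf105.

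CDH12, a cadherin first described in brain, was the most abundant of the 12 per kb, at 667 ± 42.9 in siNT and 784 ± 39.4 in siTAZ (SD, n = 3), and rose 1.18-fold (limma adjusted p = 0.0018). Next per kb in siNT came CDH24 at 178 ± 10.1 and CDH6 at 81.4 ± 5.24, and in siTAZ CDH6 at 210 ± 10.1 and CDH24 at 120 ± 2.71 (SD, n = 3), so these 2 changed places. CDH11, a mesenchymal cadherin, fell 1.33-fold, from 84.6 ± 1.25 to 63.8 ± 3.58 (SD, n = 3, limma adjusted p = 0.021), a call that was lost with DESeq2 (adjusted p = 0.090) and when siNT replicate 1 (0.051) or either of siTAZ replicates 1 (0.054) and 3 (0.061) was left out. Over 16 alternatives its adjusted p ran from 0.017 to 0.090. CDH26 rose from 9 reads over the siNT libraries to 37 over the siTAZ libraries (limma adjusted p = 0.0078), and its call was lost without siTAZ replicate 3 (adjusted p = 0.065, range over 15 alternatives 0.0063 to 0.065).

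N-cadherin (CDH2), the cadherin of mesenchymal and neural cells, was scarce: 17.8, 19.2 and 12.1 in siNT and 10.39, 11.01 and 9.38 in siTAZ. Its groups did not overlap, but it did not pass the test (log2 fold change -0.60, SE 0.31, limma adjusted p = 0.10). CDH19 showed the same arrangement, at 17.0 ± 1.74 and 11.8 ± 0.93 (SD, n = 3, limma adjusted p = 0.15). CDH15, a muscle cadherin, was at 5.24, 17.1 and 10.9 in siNT and at 16.6, 13.8 and 29.9 in siTAZ, and CDH7 at 16.8, 18.2 and 14.5 and at 18.7, 15.6 and 24.7. Both overlapped and did not pass (limma adjusted p = 0.071 and 0.50). CDH15 passed as higher with the replicate number as a block (adjusted p = 0.046) and without siNT replicate 2 (0.019) or siTAZ replicate 2 (0.045), with a range over 15 alternatives of 0.019 to 0.31. CDH8 had 2 reads in siNT and 9 in siTAZ and was not called (limma adjusted p = 0.23).

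The catenins moved in opposite directions. CTNND1 (p120-catenin), which holds classical cadherins at the membrane, rose 1.24-fold, with 15564, 14953 and 14977 in siNT and 18166, 19191 and 19263 in siTAZ (limma adjusted p = 1.3e-05). CTNNA1 (alpha-E-catenin), which joins the cadherin complex to actin, fell 1.32-fold, with 947, 918 and 941 in siNT and 671, 715 and 734 in siTAZ (limma adjusted p = 2.7e-05). In neither gene did the groups overlap. The level of CTNNA1 per kb was 244 ± 3.95 in siNT against 2314 ± 52.8 for CTNND1 (SD, n = 3). This low level of CTNNA1 is uncertain, since the annotation behind the counts is not known. In the GENCODE release used here, 5.04% of the exon bases of CTNNA1 lie opposite LRRTM2 and 0.849% opposite AC034243.1. The treatment of reads shared by overlapping genes is also not known, and its part in this level was not tested.

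Both nectins measured rose, as did EPCAM, against 28.3% of all genes called higher. NECTIN1 (ENSG00000110400), an immunoglobulin-like adhesion molecule bound by afadin, was at 2100, 2263 and 2459 in siNT and at 4965, 4405 and 4529 in siTAZ. The siTAZ libraries were all higher, by 2.04-fold (log2 fold change 1.03, SE 0.06, limma adjusted p = 3.8e-10). NECTIN2 rose 1.25-fold, from 5077 ± 330 to 6367 ± 353 (SD, n = 3, limma adjusted p = 7.9e-05). EPCAM (ENSG00000119888), an epithelial adhesion molecule that stabilises claudin 7, was at 512, 498 and 492 in siNT and at 1387, 1313 and 1383 in siTAZ. Its libraries varied little within each group, and the rise was 2.72-fold (limma adjusted p = 5.5e-12).

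Other junction genes outside the name rule moved to a varying degree. Of 15 further adherens junction genes measured, 9 rose and 1 fell (66.7% called, against 55.8% of all genes). Among them E-cadherin (CDH1) rose from 256 ± 15.7 to 579 ± 15.0, liver-intestine cadherin (CDH17) from 5754 ± 264 to 16127 ± 118 and CAMSAP3, which anchors microtubule ends at junctions, from 1160 ± 111 to 2855 ± 142, while vinculin (VCL), an actin linker, fell from 13777 ± 333 to 8450 ± 213 (SD, n = 3; limma adjusted p = 1.4e-09, 2.1e-13, 6.2e-11 and 6.7e-10). Of 13 further tight junction genes, 3 rose and 3 fell, and the called share of 46.2% was below that of all genes. Paracingulin (CGNL1), the relative of cingulin, rose from 1023 ± 65.0 to 3249 ± 69.1 and PATJ, a scaffold of the Crumbs complex, from 378 ± 16.3 to 693 ± 19.6, whereas ESAM fell from 1774 ± 99.9 to 1165 ± 109 and MARVELD1 from 3486 ± 147 to 2660 ± 121 (SD, n = 3; limma adjusted p = 5.1e-13, 1.4e-08, 7.4e-07 and 6.2e-06).

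Of 13 polarity genes 4 rose and 2 fell (46.2% called, against 55.8% of all genes), led by LLGL2, a basolateral scaffold, from 1193 ± 86.5 to 2457 ± 109, then CRB3 from 207 ± 9.94 to 338 ± 17.3, PRKCZ from 783 ± 54.9 to 1087 ± 10.99 and PARD3, which fell from 4190 ± 17.8 to 3351 ± 86.6 (SD, n = 3; limma adjusted p = 2.8e-10, 3.1e-06, 6.8e-06 and 1.2e-05). Of 10 gap junction genes 5 rose and 2 fell (70.0% called). The connexin GJB1 rose from 16.7 ± 4.02 to 202 ± 32.0, GJB2 from 19.0 ± 10.4 to 54.3 ± 4.82 and PANX1 from 663 ± 15.3 to 811 ± 12.1, and GJC1 fell from 1603 ± 12.4 to 1142 ± 45.4 (SD, n = 3; limma adjusted p = 1.4e-10, 5.4e-04, 5.8e-04 and 7.6e-07). Of 9 further desmosome and hemidesmosome genes 2 rose and 3 fell (55.6% called, about the share of all genes). Integrin beta 4 (ITGB4), of hemidesmosomes, rose from 63.7 ± 20.8 to 299 ± 15.9 and COL17A1 from 332 ± 28.2 to 548 ± 44.1, while the desmosome protein PERP fell from 10338 ± 426 to 8151 ± 377 (SD, n = 3; limma adjusted p = 4.9e-09, 1.6e-06 and 1.3e-05).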

How the data were processed

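Poly(A) RNA libraries made from 1 µg of total RNA with a stranded kit, per the labels' protocols, came from 3 siNT and 3 siTAZ samples, grouped and numbered by their titles. The submitters' processing notes name genome build hg19 and the tools FastQC, HISAT2, HTSeq and DESeq2, but no source used here gives versions, annotation, strand setting or gene filter. The deposited values are a signal, read here as gene reads divided by a size factor for each library (0.828 to 1.17). Each factor was estimated here from the steps between the lower values of its library. All values (100%), including those used for the estimate, came out as whole reads, to within 0.001, when multiplied by that factor. Of 17211 genes, 15593 were named from a table of Ensembl identifiers and 1150 from GENCODE release 29. That release also gave transcript lengths, exon overlaps and neighbours; it is of another build, so gene coordinates are not given.

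For the test, limma 3.58.1 in R 4.3.3 with an intensity trend compared the groups, with no other term, on log2(deposited value + 1) for 17204 genes averaging 1 or more, and p-values were Benjamini-Hochberg adjusted over all of them. Alternatives were edgeR 4.0.16, DESeq2 1.42.0 and voom on whole reads, other scalings, pseudocounts and filters, the replicate number as a block, and each library left out. The scripts were tested on simulated data. Python 3.11.15, pandas 2.3.3, numpy 2.4.6, scipy 1.17.1 and matplotlib 3.10.9 were used.

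The genes, lists and tests were chosen with earlier results of these data known. Values in every library are given for up to 6 called genes per role with a mean of at least 50 and an absolute log2 fold change of at least 0.5, and for the 2 uncalled genes of highest mean. Those of DSG2, CTNND1, CTNNA1 and CDH2, the exon overlaps and the claudin sum without CLDN4 were added after the values were seen. The test of the claudin shares was not among the planned tests. In each other list up to 4 called genes with the smallest adjusted p are named. Some genes that these rules name are not reported here, though they enter the counts and sums. Fewer cells of a type and less RNA per cell cannot be told apart in these bulk samples.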

Additional observations from a re-analysis of the deposited data

How the results depend on the processing

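The count of junction genes called higher was 25 and ran from 24 to 28 over 16 alternatives, and the count called lower was 9 and ran from 7 to 9. The count of called rises of at least 2-fold was 11 and ran from 10 to 14, and that of such falls stayed at 1. CLDN7, at a log2 fold change of 0.9992, was just short of that cut. Leaving out 1 library gave 25 to 27 higher and 7 to 8 lower. With edgeR on the whole reads 26 rose and 8 fell, among 4963 and 4667 of all genes. DESeq2 gave 25 and 7, among 4398 and 4355 of all genes. Of the 34 called genes, all 34 had the same direction under every alternative that could be run, and 30 also stayed past the threshold, the exceptions being CLDN23, CLDN10, CDH26 and CDH11. Of the 14 uncalled genes 10 stayed uncalled, the exceptions being DSG4, EVPL, PKP4 and CDH15. The cause of these changes was not tested. Same-numbered libraries did not deviate together (correlations of -0.085, -0.022 and 0.0061 for replicates 1, 2 and 3). No library correlated best with its own number, so the numbers are not taken as pairs. With the replicate number as a block 26 junction genes rose and 8 fell, among 4439 and 4262 of all genes. Total count scaling moved the median of all genes to 0.05 and gave 28 and 8, among 5561 and 4046 of all genes. With a filter of 1 CPM in 3 libraries fewer low genes were tested. Depth limits the genes with few reads, such as CDH8, DSG4 and CDH26, for which differences were measured with large errors.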
